A study of Homo sapiens with 6 samples.

Results

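The genes of pericellular proteolysis were followed in HaCaT, an established human skin keratinocyte line that grows without limit: the matrix metalloproteinases (MMP), the membrane-bound ADAM and secreted ADAMTS proteases, their tissue inhibitors (TIMP), the plasminogen activators PLAU and PLAT and the receptor PLAUR. Members were chosen by symbol alone, as MMP, ADAM, ADAMTS or TIMP followed by a number, without pseudogenes or antisense transcripts, plus PLAU, PLAUR and PLAT. This gave 65 of the 19775 genes with a probe set of their own: 22 MMPs, 18 ADAMs, 18 ADAMTSs, 4 TIMPs and 3 genes of the plasminogen activator system. MMP23A, MMP23B and ADAM29 were named only by probe sets that they share with another gene, which averaged 3.22 and 1.78 on the log2 scale, and were left out.

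Of the 6 cultures, 3 were kept under a negative pressure gradient of 125 mmHg and 3 at ambient pressure. All were HaCaT cells in the same medium, kept for 12 h in their condition, and the titles call the replicates of each condition biological. A single immortalised line thus stands in for keratinocytes. RNA was hybridised to Affymetrix arrays, and the deposited values are log2 expression per probe set. Each gene is represented by its brightest probe set. Precision is limited by there being only 3 arrays in each group. Replicate 3 of both groups stood apart from the other 4 arrays on the first principal component, which held 42.2% of the variance. Of 4 measured keratinocyte markers (KRT5, KRT14, DSG3 and SFN), all were bright, with means of 8.35 to 12.5. Above the expression threshold defined below were 1 of 6 fibroblast, 1 of 5 leukocyte, 1 of 3 endothelial and 0 of 3 melanocyte markers. In RNA of a whole culture, fewer cells that make a transcript and less of it per cell cannot be told apart.

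Plasminogen activators cut plasminogen to plasmin, a broad protease that degrades fibrin and matrix and can activate several pro-MMPs. MMPs and ADAMTSs cut collagens, laminins and proteoglycans, ADAMs release membrane-anchored ligands, receptors and adhesion molecules, and TIMPs bind the active sites of these enzymes. In keratinocytes this set of genes is known for its part in re-epithelialisation, when cells detach from the basement membrane and migrate across a wound.

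A cluster of MMP genes lies on chromosome 11, where 9 members span 435.2 kb, from base 102520508 to 102955732 of GRCh38.p14 as RefSeq gives it. Several of its genes are known to respond to AP-1, the FOS and JUN dimer, through an element near the start site. The pattern TGANTCA, with any base at N, reads the same on both strands. It was searched in the 250 bases before each start in the RefSeq promoter table (GRCh38.p14). It was found in 3 of the 5 cluster promoters that the table holds. Counted by promoter it was in 5 of 40 for the members and in 6.57% of all 35097, and counted by gene in 5 of 38 members and in 8.06% of all 27305 genes with an entry. The 3 cluster promoters are shown because their genes lie close together, match the same pattern and had different values on the arrays. The matched bases are TGAATCA in MMP10 and MMP20 and TGAGTCA in MMP7. The last 150 bases before the start are given 5′ to 3′ on the minus strand, with the match in capitals. It begins 67 bases before the start in MMP10 and MMP7 and 112 bases before it in MMP20.
MMP10, chr11:102780629-102780778: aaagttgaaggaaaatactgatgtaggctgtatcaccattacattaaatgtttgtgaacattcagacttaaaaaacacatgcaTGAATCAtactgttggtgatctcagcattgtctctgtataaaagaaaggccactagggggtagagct
MMP7, chr11:102530748-102530897: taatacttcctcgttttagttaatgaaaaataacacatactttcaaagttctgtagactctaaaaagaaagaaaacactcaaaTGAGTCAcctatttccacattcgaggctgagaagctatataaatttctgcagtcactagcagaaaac
MMP20, chr11:102625333-102625482: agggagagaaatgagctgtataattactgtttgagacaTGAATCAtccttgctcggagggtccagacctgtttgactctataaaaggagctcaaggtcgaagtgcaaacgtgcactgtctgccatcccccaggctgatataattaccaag
The other member promoters with a match were those of ADAMTS12 (84 bases before the start) and PLAUR (186 bases). A match describes these letters only and is not evidence of binding.

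The table holds no detection calls, so a gene was counted as expressed where its mean over the 6 arrays lay above 4.49 on the log2 scale. This is the 95th percentile of the means of 82 olfactory receptor genes, a family taken as silent in keratinocytes. By this threshold 31 of 65 members (47.7%) were expressed, against 56.3% of all genes. All 3 genes of the plasminogen activator system, 3 of 4 TIMPs, 9 of 22 MMPs, 9 of 18 ADAMs and 7 of 18 ADAMTSs lay above it. Probe sets differ in how strongly they bind, so a level is set against this threshold and not against that of another gene, and a gene below it may still be transcribed.

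**Figure D1:**
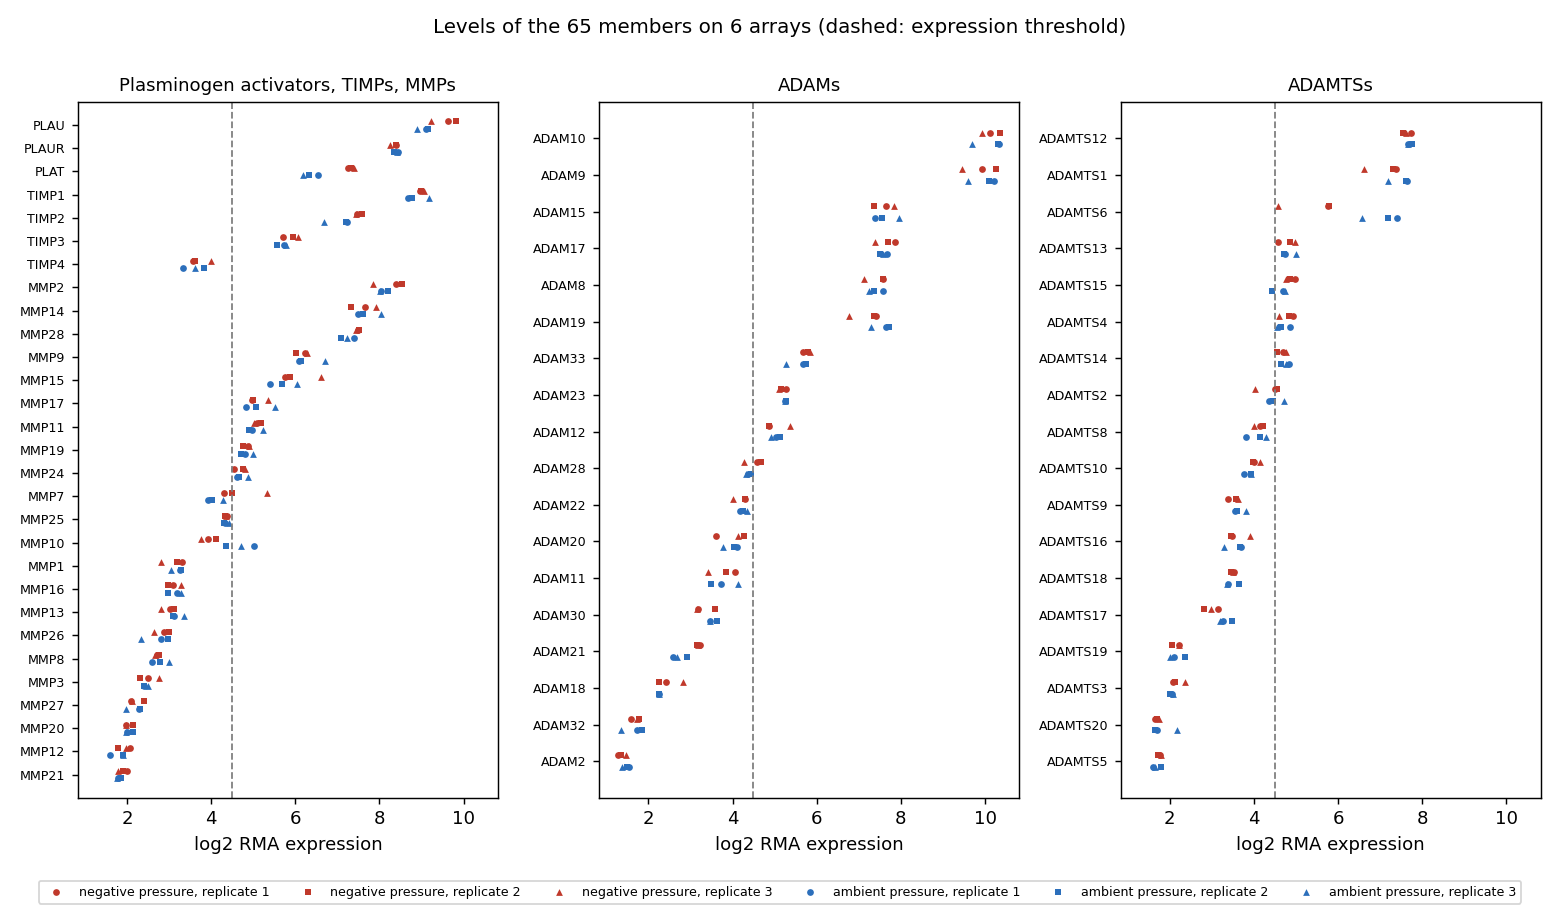
Levels of the 65 members on each array, in log2 RMA expression, by family and ordered by mean, with negative pressure above ambient pressure in each row and a marker for each replicate; the dashed line is the expression threshold of 4.49. PLAU, PLAUR and PLAT lie above the line on every array, and 30 members lie above it on no array.

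The expressed MMPs were the gelatinases MMP2 and MMP9, the membrane-anchored MMP14, MMP15, MMP17 and MMP24, the epithelial epilysin MMP28, the stromelysin-like MMP11, and MMP19. The expressed ADAMs were ADAM8, ADAM9, ADAM10, ADAM12, ADAM15, ADAM17, ADAM19, ADAM23 and ADAM33, of which ADAM23 is known to lack protease activity. Among ADAMTSs they were ADAMTS1, ADAMTS4 and ADAMTS15, which cut aggrecan or versican, the procollagen-processing ADAMTS14, the von Willebrand factor protease ADAMTS13, ADAMTS6 and ADAMTS12. TIMP1, TIMP2 and TIMP3 were expressed and TIMP4 was not (mean 3.66). Several expressed members lay close to the threshold: MMP19, MMP24, ADAMTS4, ADAMTS13, ADAMTS14 and ADAMTS15 had means of 4.70 to 4.85. The leukocyte marker CD3E (4.87) and 5 of the olfactory receptor genes, the brightest at 5.19, passed it too. So did the endothelial marker PECAM1 (5.04) and, well above it, the fibroblast marker COL1A1 (6.78). The means of MMP11 (5.07), MMP17 (5.12) and ADAM12 (5.03) were also below that of the brightest olfactory receptor gene. Passing is thus weak evidence of transcription for such members. The other ADAM12 probe sets averaged 1.87 to 2.55 and the other ADAM33 one 2.52, all below the threshold.

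The 34 members below the threshold had means of 1.42 to 4.45. None of the 9 members of the chromosome 11 cluster was above it on average: the collagenases MMP1 (3.15), MMP8 (2.76) and MMP13 (3.08), the stromelysins MMP3 (2.48) and MMP10 (4.32), the macrophage elastase MMP12 (1.87), the enamel protease MMP20 (2.04), MMP27 (2.20) and the matrilysin MMP7 (4.40). ADAM2, ADAM18, ADAM20, ADAM21, ADAM30 and ADAM32, known chiefly from testis and sperm, had means of 1.42 to 3.99. The nearest member above the threshold was ADAMTS14 (4.70) and the nearest below it ADAM28 (4.45), followed by ADAMTS2 (4.43). On single arrays 5 members were on both sides of it, among them MMP7 and MMP10, each above it on 2 arrays.

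Negative pressure was then compared with ambient pressure with limma over all 19775 genes, where a log2 difference is negative minus ambient pressure and an adjusted p under 0.05 counted as passing. PLAT was the 1 of 65 members that passed, against 0.92% of all genes tested. It was thus also the 1 of 31 expressed members that passed, against 1.46% of all expressed genes. It rose, as 0.607% of all genes did, and no member fell, against 0.314% of all genes. In this limma fit 8 members had an unadjusted p under 0.05, 5 of them higher and 3 lower, a share of 12.3% against 11.7% of all genes. With the replicate number as a block 6 of 65 members (9.23%) passed, against 4.94% of all genes and 7.73% of expressed genes. PLAT, PLAU, MMP7 and ADAM21 rose in that fit (2.87% of all genes rose), and ADAMTS6 and MMP10 fell (2.06% fell). The median difference over the 65 members was 0.01 on the log2 scale, as it was over all genes. The 3 arrays under negative pressure lay wholly above or below the 3 at ambient pressure for 13 of 65 members, against 17.3% of all genes. Of these, 10 were higher under negative pressure, against 10.3% of all genes, and 3 were lower, against 6.96%.

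**Figure D2:**
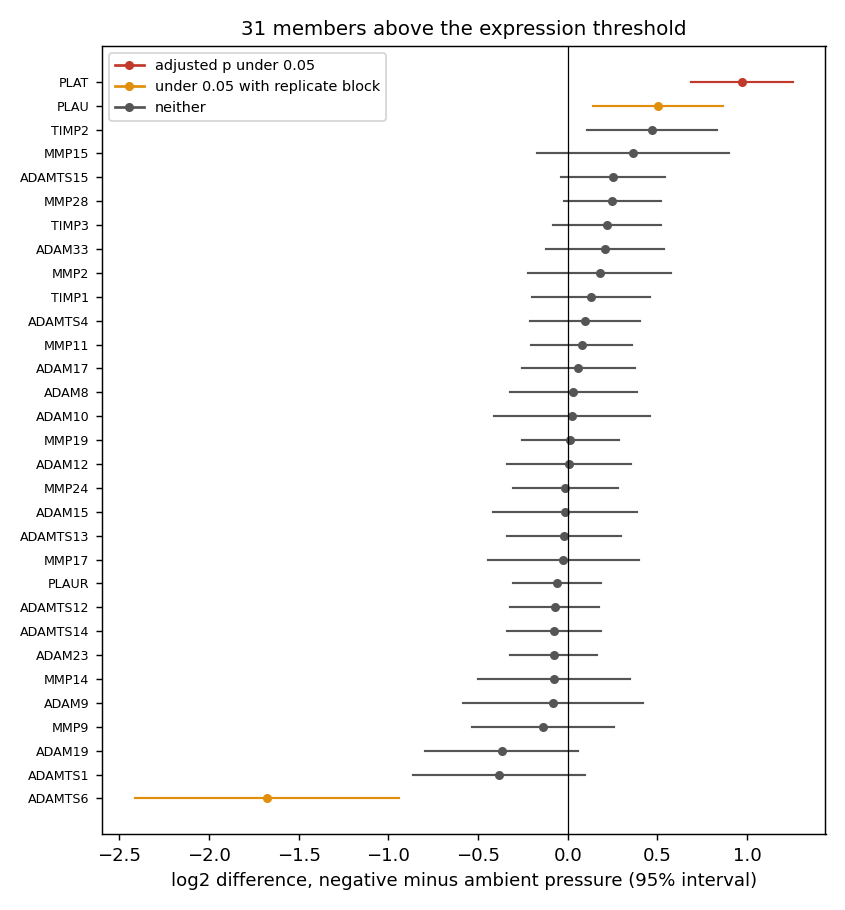
Difference between negative and ambient pressure on the log2 scale for the 31 expressed members, with the 95% interval from limma; colour marks an adjusted p under 0.05 without the replicate block or only with it. PLAT (0.97) and ADAMTS6 (-1.68) lie at the ends, and 29 of the 31 intervals stay within a 2-fold change in either direction.

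PLAT encodes tissue-type plasminogen activator, the fibrin-dependent activator best known from vessel walls and brain; the gene lies on chromosome 8, bases 42174718 to 42207565. Its log2 level was 7.26, 7.32 and 7.39 under negative pressure, against 6.54, 6.33 and 6.19 at ambient pressure. The groups did not overlap, and the gap between them was wider than the range within either. PLAT averaged 7.32 ± 0.07 under negative pressure and 6.35 ± 0.18 at ambient pressure (SD, n = 3 each). The rise of 0.97 ± 0.13 (SE; limma adjusted p = 0.0168) is 1.96-fold. When 1 array was left out the difference ran from 0.89 to 1.06, and the call was lost without ambient replicates 1 (adjusted p = 0.0594) or 2 (0.110) and without negative pressure replicates 1 (0.0712) or 2 (0.0919). The array holds 1 single-gene probe set for PLAT, so no other probe set bears on it. Of 3 endothelial markers, PECAM1 was above the expression threshold (mean 5.04) and VWF and CDH5 were below it (4.31 and 4.41). CDH5 fell by 0.80 (adjusted p = 0.0325). The summed log2 level of the 3 markers was 13.04 to 13.61 on the negative pressure arrays and 13.64 to 14.76 on the ambient ones, a sum of 3 probe sets of which 2 are weak. Its part in the PLAT difference was not tested.

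PLAU encodes urokinase, the activator that works at the cell surface when bound to PLAUR. Its log2 level was 9.63, 9.81 and 9.23 under negative pressure, against 9.10, 9.15 and 8.90 at ambient pressure. Every negative pressure array was above every ambient one, by a narrow margin at negative pressure replicate 3. The difference of 0.50 ± 0.16 did not pass (adjusted p = 0.237) and passed with the replicate block (0.0284) and without both replicate 3 arrays (0.0473). Its other probe set, with a mean of 8.89, stood at 0.62. PLAUR, the glycolipid-anchored urokinase receptor, stood at 8.38, 8.39 and 8.25 under negative pressure and 8.44, 8.35 and 8.43 at ambient pressure, with overlapping groups. The difference for PLAUR was -0.06, with a 95% interval of -0.31 to 0.18 (adjusted p = 0.912).

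**Figure D3:**
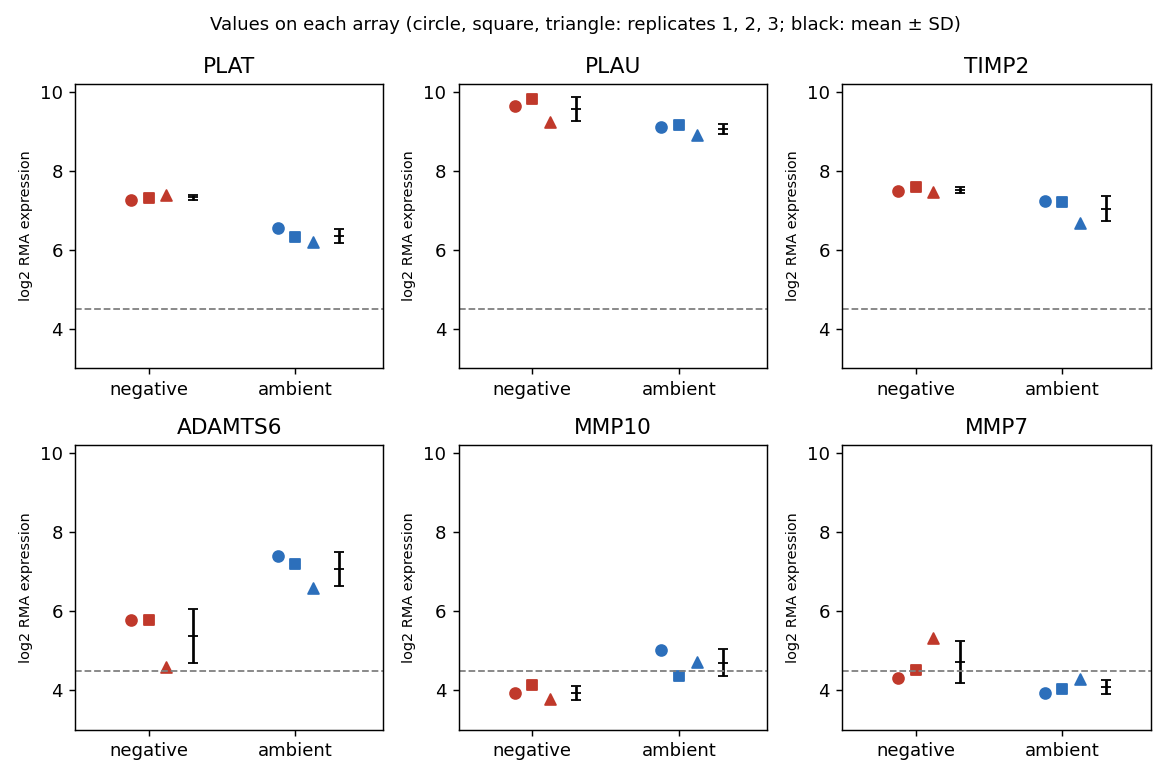
Log2 RMA expression of PLAT, PLAU, TIMP2, ADAMTS6, MMP10 and MMP7 on each array, negative pressure left of ambient pressure, with mean ± SD (n = 3 each) in black and the expression threshold of 4.49 as a dashed line. PLAT is higher on all 3 negative pressure arrays with little spread, ADAMTS6 is lower on all 3, and MMP10 and MMP7 lie at the threshold.

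Among the inhibitors, none of the 4 TIMPs passed, and in limma 1 had an unadjusted p under 0.05, as 11.7% of all genes did. All 4 differences were above 0, as were 53.4% of those of all genes. TIMP2, which with MMP14 also takes part in activating pro-MMP2, had log2 levels of 7.48, 7.59 and 7.45 under negative pressure, against 7.23, 7.20 and 6.68 at ambient pressure. The groups did not overlap, and ambient replicate 3 was clearly the lowest array. The difference was 0.47 ± 0.16 (adjusted p = 0.273, block 0.0556), and 0.29 without ambient replicate 3. The 2 other TIMP2 probe sets stood at 0.43 and 0.09.

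TIMP1, a soluble inhibitor of most MMPs, had 8.97, 8.98 and 9.06 under negative pressure and 8.67, 8.78 and 9.18 at ambient pressure. Its groups overlapped through ambient replicate 3, the highest of the 6 arrays (difference 0.13, 95% interval -0.20 to 0.46, adjusted p = 0.849). With 1 array left out the TIMP1 difference ran between 0.024 and 0.28. TIMP3, the matrix-bound inhibitor that also acts on ADAM17, had 5.70, 5.95 and 6.07 under negative pressure and 5.72, 5.55 and 5.78 at ambient pressure (difference 0.22, interval -0.08 to 0.52, adjusted p = 0.619). Its groups overlapped as well, and the difference was 0.14 without negative pressure replicate 3.

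The gelatinases and the membrane-anchored MMPs showed no change past the threshold. MMP2, which cuts denatured collagen and basement membrane collagen, had 8.40, 8.53 and 7.85 under negative pressure and 8.03, 8.21 and 8.01 at ambient pressure. Negative pressure replicate 3 was the lowest of all 6 arrays and replicates 1 and 2 the highest (difference 0.18, 95% interval -0.22 to 0.58, adjusted p = 0.812). Without negative pressure replicate 2 the MMP2 difference was 0.041, and without replicate 3 of that group 0.38. MMP9, the other gelatinase, had 6.22, 6.01 and 6.28 under negative pressure and 6.08, 6.14 and 6.71 at ambient pressure (difference -0.14, interval -0.54 to 0.26, adjusted p = 0.864). Ambient replicate 3 was the highest array and the groups overlapped.

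MMP14, the membrane-type MMP that activates pro-MMP2, had 7.66, 7.33 and 7.92 under negative pressure and 7.49, 7.61 and 8.04 at ambient pressure. Both replicate 3 arrays were high and the groups overlapped (difference -0.08, 95% interval -0.50 to 0.34, adjusted p = 0.936). All 4 MMP14 probe sets stood between -0.16 and -0.04. MMP15, another transmembrane MMP, had 5.76, 5.88 and 6.60 under negative pressure and 5.40, 5.69 and 6.05 at ambient pressure, again highest at replicate 3 of each group (difference 0.36 ± 0.24, adjusted p = 0.649). Leaving out 1 array moved this between 0.10, without negative pressure replicate 3, and 0.53. Its second probe set above the threshold stood at -0.11.

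MMP28, or epilysin, is known from the keratinocytes of intact and wounded skin. Its log2 level was 7.49, 7.52 and 7.43 under negative pressure, against 7.40, 7.09 and 7.22 at ambient pressure. The groups nearly touched at negative pressure replicate 3 and ambient replicate 1, and the difference of 0.25 ± 0.12 did not pass (adjusted p = 0.481). The 4 MMP28 probe sets above the threshold stood at 0.25, 0.36, -0.01 and 0.22. The remaining expressed MMPs, MMP11, MMP17, MMP19 and MMP24, stood between -0.02 and 0.08.

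Of the chromosome 11 cluster, MMP10 and MMP7 stood on opposite sides of 0, both at weak signals. MMP10, a stromelysin made by keratinocytes at the migrating wound edge, had 3.93, 4.12 and 3.76 under negative pressure, against 5.02, 4.36 and 4.71 at ambient pressure. All negative pressure arrays were lower than all ambient ones, and the only arrays above the expression threshold were ambient replicates 1 and 3. The difference was -0.76 ± 0.18 (adjusted p = 0.101), and MMP10 fell with the replicate block (0.0171). MMP7, the small matrilysin of glandular epithelia, had 4.32, 4.51 and 5.32 under negative pressure, against 3.92, 4.02 and 4.29 at ambient pressure. The groups were separate and negative pressure replicate 3 was the highest array by far. The difference was 0.64 ± 0.24 (adjusted p = 0.328), MMP7 rose with the replicate block (0.0219), and the difference was 0.33 without negative pressure replicate 3. MMP1, which cuts fibrillar collagen and lies beside MMP10, had 3.32, 3.18 and 2.81 under negative pressure and 3.26, 3.28 and 3.05 at ambient pressure, below the threshold on every array (difference -0.09, adjusted p = 0.901). The other 6 genes of the cluster stood between -0.21 and 0.15. The MMP10, MMP7 and MMP20 promoters printed above belong to genes at -0.76, 0.64 and -0.01. MMP20, with a mean of 2.04, was below the threshold on every array, so its value near 0 says little.

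ADAMTS6 had the largest difference of any member. It belongs with ADAMTS10 to a pair of secreted proteases known for acting on fibrillin microfibrils, and lies on chromosome 5, bases 65148738 to 65481920. Its log2 level was 5.77, 5.78 and 4.58 under negative pressure, against 7.41, 7.19 and 6.57 at ambient pressure. Every negative pressure array was lower than every ambient one, and replicate 3 was the lowest array of each group. ADAMTS6 averaged 5.38 ± 0.69 under negative pressure and 7.05 ± 0.43 at ambient pressure (SD, n = 3 each). The difference of -1.68 ± 0.33, 3.20-fold, narrowly missed the threshold (adjusted p = 0.0557), and ADAMTS6 fell with the replicate block (8.9e-05). Left-out arrays moved it between -1.92 and -1.28, and without both replicate 3 arrays it was -1.52 (adjusted p = 0.0101). The 2 other ADAMTS6 probe sets were below the expression threshold: the one with a mean of 3.73 stood at -0.85 and the one with a mean of 2.60 at 0.04. ADAMTS10 was below the threshold (mean 3.95) and stood at 0.16.

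ADAMTS1, which cuts versican and aggrecan, had 7.38, 7.31 and 6.61 under negative pressure and 7.65, 7.61 and 7.20 at ambient pressure. The groups overlapped, with ambient replicate 3 below 2 of the negative pressure arrays. The difference was -0.38 ± 0.21 (adjusted p = 0.565, block 0.0821), and the second probe set stood at -0.49. Without negative pressure replicate 3 it was -0.14. ADAMTS15, a related proteoglycan protease just above the expression threshold, had 4.99, 4.87 and 4.76 under negative pressure and 4.69, 4.43 and 4.74 at ambient pressure (difference 0.25 ± 0.13, adjusted p = 0.515). The groups were separated by a margin smaller than either range, and the difference was 0.15 without ambient replicate 2. ADAMTS4, ADAMTS12, ADAMTS13 and ADAMTS14 stood between -0.08 and 0.10.

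**Figure D4:**
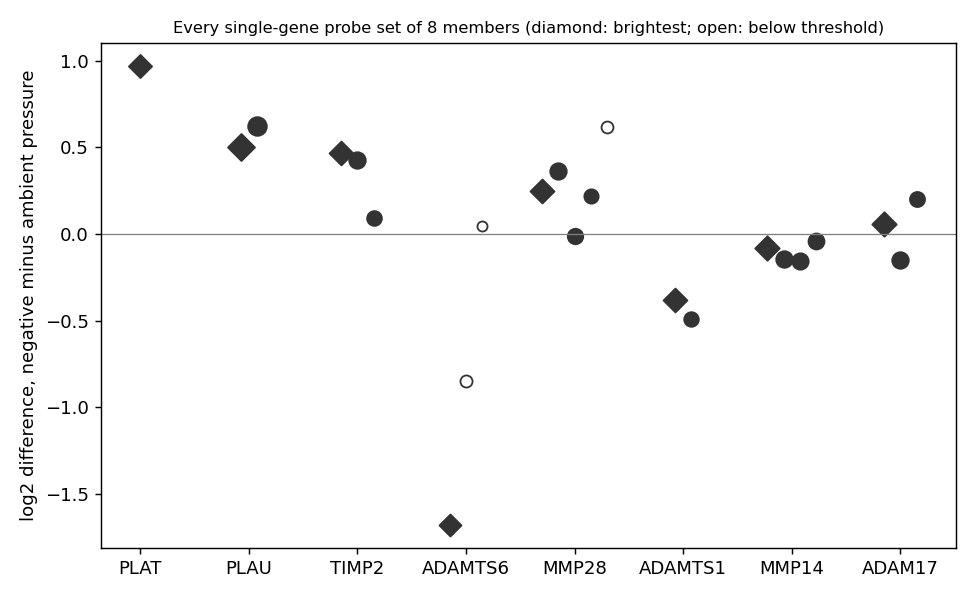
Difference between negative and ambient pressure, on the log2 scale, for every single-gene probe set of 8 members; diamonds are the brightest probe set of a gene, open symbols have a mean below the expression threshold and larger symbols have a higher mean. The 2 PLAU probe sets (0.50 and 0.62) and the 2 ADAMTS1 probe sets (-0.38 and -0.49) stand on the same side of 0, while the dimmest ADAMTS6 probe set (0.04) stays near 0.

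No expressed ADAM passed in limma, against 1.46% of all expressed genes. Of the 9, 0 reached an unadjusted p under 0.05, against 11.7% of all genes. ADAM10 releases E-cadherin and Notch ectodomains. It had 10.13, 10.36 and 9.92 under negative pressure and 10.33, 10.32 and 9.68 at ambient pressure, lowest at replicate 3 of each group (difference 0.02, 95% interval -0.41 to 0.46, adjusted p = 0.984). ADAM17 releases tumour necrosis factor and several ligands of the EGF receptor. It had 7.85, 7.70 and 7.39 under negative pressure and 7.67, 7.52 and 7.58 at ambient pressure, with overlapping groups (difference 0.06, interval -0.26 to 0.37, adjusted p = 0.937). Its 3 probe sets stood at 0.06, -0.15 and 0.20.

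ADAM19, a sheddase of neuregulins, was the expressed ADAM with the smallest p. It had 7.41, 7.35 and 6.78 under negative pressure and 7.64, 7.71 and 7.29 at ambient pressure (difference -0.37 ± 0.19, adjusted p = 0.516, block 0.0876). The groups overlapped because ambient replicate 3 was below negative pressure replicates 1 and 2, and the difference was -0.17 without negative pressure replicate 3. ADAM8, ADAM9, ADAM12, ADAM15, ADAM23 and ADAM33 stood between -0.08 and 0.21. ADAM23 has a second probe set just above the threshold (mean 4.52) that stood at 0.58, away from the -0.08 of the brightest. That probe set was above the threshold on the negative pressure arrays (4.84, 4.76 and 4.82) and below it on the ambient ones (4.43, 4.21 and 4.06). ADAM21, a testis-type ADAM, rose with the replicate block (0.0459), from values below the expression threshold on every array: 3.22, 3.17 and 3.19 under negative pressure, against 2.58, 2.92 and 2.68 at ambient pressure. The groups were separate, with a difference of 0.46 ± 0.12 in the fit without the block (adjusted p = 0.150), and the other ADAM21 probe set stood at 0.02.

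Members with 2 or more probe sets above the threshold numbered 15, and for 9 of them all such probe sets had the same sign. The replicate 3 arrays differed from replicates 1 and 2 in the same direction under negative and ambient pressure for 25 of the 31 expressed members, against 74.2% of all expressed genes. ADAMTS6 was lower at replicate 3 by 1.19 under negative pressure and by 0.72 at ambient pressure, and ADAM9, ADAM10, ADAM19 and ADAMTS1 were lower by more than 0.3 in both. MMP14, MMP15, MMP17 and ADAM15 were higher by more than 0.3 in both. The part of replicate 3 in the differences between pressures was not tested beyond the fits with the replicate block and without both arrays.

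**Figure D5:**
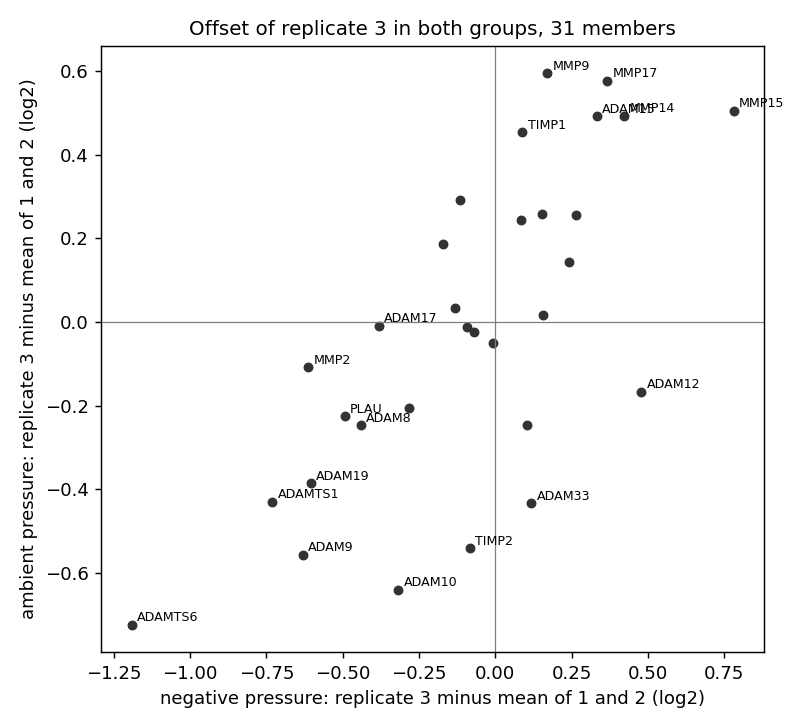
Replicate 3 minus the mean of replicates 1 and 2, on the log2 scale, under negative pressure (horizontal) and at ambient pressure (vertical) for the 31 expressed members. ADAMTS6, ADAMTS1, ADAM9, ADAM19 and ADAM10 lie at the lower left and MMP15, MMP14, MMP17 and ADAM15 at the upper right.

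The partners of these proteases were taken from 6 lists with 73 measured genes, of which 2 rose and 2 fell, against 0.607% and 0.314% of all genes. Above the expression threshold were 66 of the 73, and 1.46% of all expressed genes passed. The lists were chosen with earlier results of these data known, so these shares are no independent test. Of 11 plasminogen system partners none passed, and in limma 2 had an unadjusted p under 0.05, beside 11.7% of all genes. The list median was 0.06, beside 0.01 over all genes. SERPINE2, protease nexin, a serpin that inhibits urokinase, tissue-type activator and thrombin, had 8.35, 8.23 and 8.05 under negative pressure, against 7.62, 7.66 and 7.45 at ambient pressure. The groups were well separated, with a difference of 0.64 ± 0.13 (adjusted p = 0.0584), and SERPINE2 rose with the replicate block (0.0077). Across the alternative limma fits, single left-out arrays aside, its difference ran from 0.34 to 0.65 and its adjusted p from 0.00426 to 0.169. PLGRKT, a plasminogen receptor, had 6.52, 7.02 and 6.95 under negative pressure, against 7.41, 7.40 and 7.64 at ambient pressure (difference -0.66 ± 0.15, adjusted p = 0.108), and fell with the replicate block (0.0124). Plasminogen itself (PLG) averaged 4.55 under negative pressure and 4.26 at ambient pressure, around the expression threshold.

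TFPI2 was the 1 of 13 MMP regulators that passed, against 0.92% of all genes. It encodes a secreted Kunitz-type inhibitor of plasmin and some MMPs, and it had 9.42, 9.30 and 9.37 under negative pressure, against 10.16, 10.12 and 10.35 at ambient pressure. The groups were far apart for their spread, and TFPI2 fell by 0.85 on the log2 scale, 1.80-fold (SE 0.12, adjusted p = 0.0182). The call was lost when 1 of 4 arrays was left out (adjusted p up to 0.104) while the difference stayed between -0.89 and -0.78. It was also lost with the probe set of largest variance (-1.23, adjusted p = 0.0703). RECK, a membrane-anchored MMP inhibitor (0.07, adjusted p = 0.951), and BSG, an inducer of MMPs (0.15, 0.805), did not pass, and the list median was -0.00.

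None of 11 ADAM regulators passed in limma, and the list median was 0.02. Of the 11, 0 reached an unadjusted p under 0.05, against 11.7% of all genes. Among these regulators was RHBDF2, the iRhom that carries ADAM17 to the surface (-0.07, adjusted p = 0.904). Of 13 ADAM-shed substrates none passed, in limma 3 had an unadjusted p under 0.05 (11.7% of all genes), and the median was 0.12. With the replicate block 3 of the 13 passed, against 4.94% of all genes and 7.73% of expressed genes. In that fit NOTCH1 (0.59, adjusted p = 0.0930, block 0.0114) and the receptor gene TNFRSF1A (0.48, 0.283, block 0.0339) rose. The ligand gene TGFA (-0.52, 0.267, block 0.0264) fell. HBEGF, another ligand released by ADAM17, stood at -0.17 (adjusted p = 0.890), with 6.13 at negative pressure replicate 3 and 6.93 to 7.25 on the other arrays. None of 12 matrix substrates passed in limma, and the list median was 0.12. Of the 12, 0 reached an unadjusted p under 0.05, against 11.7% of all genes. Fibronectin (FN1) stood at 0.07 (adjusted p = 0.912).

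Of 13 AP-1 and ETS factors, which are known to act on many MMP and plasminogen activator promoters, 2 rose and 1 fell, against 0.607% and 0.314% of all genes, and 10 did not pass. In limma 8 of the 13 had an unadjusted p under 0.05 (11.7% of all genes), while the replicate block gave 3 rises and 4 falls (2.87% and 2.06% of all genes). All 13 were expressed, and of all expressed genes 1.46% passed without the block and 7.73% with it. The list median was -0.13. This list was chosen with earlier results of these data known, so a share above that of all genes is no independent result. ELF3, an epithelial ETS factor, had 7.99, 7.87 and 8.61 under negative pressure, against 6.69, 6.60 and 6.83 at ambient pressure (difference 1.45 ± 0.19, adjusted p = 0.0172). JUNB rose as well (0.67 ± 0.12, adjusted p = 0.0396), and the AP-1 subunit FOSL1 fell by 1.04 ± 0.19 (adjusted p = 0.0467). JUN stood at -0.71 ± 0.18 (adjusted p = 0.138) and fell with the replicate block (0.0110). The calls of ELF3, JUNB and FOSL1 depended on single arrays: when 1 array was left out ELF3 passed in 2 of the 6 fits, JUNB in 1 and FOSL1 in 0. JUNB also missed the threshold after repeated quantile normalization (adjusted p = 0.0578), after cyclic loess (0.0582) and when the most variable probe set stood for the gene (0.0669). FOSL1 also missed it after median centring (adjusted p = 0.0642) and for the most variable probe set (0.0601). These genes and the members share the same 6 arrays, and a link between them was not tested.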

How the data were processed

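The authors deposited log2 expression per probe set. Per the submitters' processing notes, they used RMA (background correction, normalization between arrays, summary per probe set) and Expression Console 1.2. No source used here gives scan batches. The platform annotation named 1 gene for 41091 of 54675 probe sets, several for 1801 and none here for 11721. Gene positions and promoters come from RefSeq tables (GRCh38.p14).

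Each gene was represented by its brightest single-gene probe set, with no filter. The fit was lmFit and eBayes of limma 3.58.1 (R 4.3.3), with Benjamini-Hochberg adjustment over 19775 genes. It holds no replicate term, and every adjusted p comes from it unless another fit is named. In 10 simulations of 19775 genes with 200 changed, the fit recovered 36.6% of 1.5-fold and 97.0% of 2-fold changes, and 7.73% of its calls were false. The simulated noise was independent between genes and arrays, without the offset of replicate 3 seen here. These shares therefore do not carry over to the real arrays. Replicate titles share numbers. Across genes, deviations from the group means correlated at 0.27, 0.27 and 0.53 within numbers 1, 2 and 3, all above 0.1. An alternative fit therefore took same-numbered cultures as pairs, with the replicate number as a block. Calls, SEs and intervals given without mention of the block come from fits that hold no such term. The pairing rests on the check alone, in which replicate 3 stands apart from the others. Negative pressure replicate 2 correlated more with ambient replicate 1 (0.43) than with its own number, so the check does not favour the pairing by number for replicates 1 and 2. Blocked values are given where they change a call.

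Members, gene lists and alternatives were chosen with earlier results of these data known. Every expressed member is named. Values per array are given for members past either fit, the 10 expressed members of smallest p and MMP1, MMP2, MMP9, MMP10, MMP14, ADAM10, ADAM17, TIMP1, TIMP2, TIMP3, PLAU, PLAUR and PLAT. Partners are named where they passed either fit, up to 4 per list, or as fixed examples. PLG, ADAMTS10 and the further cluster genes were added after their values were seen.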

Additional observations from a re-analysis of the deposited data

How the results depend on the processing

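Members past the threshold numbered 1 in the fit reported above. The number was 6 with the replicate block, 3 with array weights, 3 without both replicate 3 arrays, and 2 each with repeated quantile normalization, with cyclic loess, with the mean of all probe sets and at an adjusted p under 0.1. When 1 array was left out it was 0 to 1, with 6 to 11 members at an unadjusted p under 0.05 in limma. Over all genes the count was 182, against 976 with the replicate block, 1145 with array weights, 372 without both replicate 3 arrays, 352 at an adjusted p under 0.1 and 7 to 145 with 1 array left out. For partners it was 4, against 13 with the replicate block, 13 with array weights, 8 without both replicate 3 arrays, 7 with the mean of all probe sets and 0 to 3 with 1 array left out, where 12 to 20 had an unadjusted p under 0.05 in limma. The replicate block changed no call of a named gene other than those given beside it and that of the keratinocyte marker DSG3. DSG3 stood at 0.63 (limma adjusted p = 0.153, block 0.0146). PLAT stayed past the threshold under every alternative except 4 of the 6 fits with 1 array left out.

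The median of the members was 0.0150 and ran from -0.0012 to 0.0413 with 1 array left out. Expressed members numbered 31, and 25 to 30 under other thresholds and probe set rules: 25 with the median of all genes, 26 with the mean of all probe sets, 27 with the 99th percentile of olfactory receptor genes or the probe set of largest variance, and 30 when every array had to be above the threshold.

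Differences near 0 changed sign, none of them past the threshold. ADAM10 stood at -0.0113 after repeating the quantile normalization, at -0.0678 when arrays were weighted and at -0.0832 when both replicate 3 arrays were left out. MMP2 and RECK stood at -0.0035 and -0.0941 with the mean of all probe sets, and with the most variable probe set PLAUR and TIMP3 stood at 0.11 and -0.16. Array weights gave -0.0348 for FN1 and 0.0434 for HBEGF, and leaving out both replicate 3 arrays gave 0.0012 for MMP9, -0.0575 for FN1 and 0.15 for HBEGF. With 1 array left out the ranges were -0.19 to 0.13 for ADAM10, -0.0438 to 0.19 for ADAM17, -0.20 to 0.0556 for MMP1, -0.22 to 0.085 for MMP14, -0.25 to 0.0576 for MMP9, -0.0034 to 0.17 for FN1, -0.40 to 0.17 for HBEGF, -0.0728 to 0.26 for RECK and -0.14 to 0.0059 for RHBDF2. The causes were not tested.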
